A study of Mus musculus with 31 samples.

Results

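The genes described here are 31 genes of the mouse nephron downstream of the proximal tubule, measured in kidney and, for contrast, in liver. They were chosen by symbol as known genes of the thick ascending limb of the loop of Henle (8 genes), the distal convoluted and connecting tubule (10 genes), the principal cells of the collecting duct (8 genes) and its intercalated cells (5 genes). Of the 31 genes, 30 had at least 1 probe, with 49 probes in all, out of 16593 genes with a symbol and 25697 probes on the Illumina BeadChip array. Kcnj10, a basolateral potassium channel of the distal tubule, had no probe.

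Every mouse was a male C57BL/6J animal aged 20 to 30 weeks given lipopolysaccharide (LPS), a component of bacterial outer membranes used to model sepsis. The groups were LPS with modIVIg (a modified immunoglobulin preparation whose modification the labels do not describe), LPS with IVIg (pooled immunoglobulin G for intravenous use) and LPS with vehicle. Kidney had 4 modIVIg, 4 IVIg and 3 vehicle arrays, and liver had 4 arrays of each. No animal without LPS was measured, doses and times are not given in the sources used here, and the labels do not say whether each array is a separate animal, so the p-values measure the spread between arrays.

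The thick ascending limb reabsorbs sodium chloride without water through an apical cotransporter that depends on potassium recycling and on chloride channels, and its tight junctions carry calcium and magnesium. The distal convoluted tubule takes up more sodium chloride and sets magnesium and calcium excretion. In the collecting duct, principal cells adjust sodium and water uptake under aldosterone and vasopressin, while intercalated cells secrete acid or base.

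A probe counted as detected on an array when its deposited detection p was under 0.01. Between 34.8% and 41.2% of all probes were detected on a kidney array and between 31.6% and 35.3% on a liver array, and precision is limited by how many arrays each group has. The kidney arrays of all 3 treatments split by replicate number: deviations from the group means correlated at -0.859 to -0.5 between an array of replicates 1 and 2 and an array of replicates 3 and 4, and the labels give no reason for the split. All kidney differences below therefore come from a fit with this split as an additive block. Kidney IVIg replicate 3 also stood apart within its group. Both values are given for many, though not all, of the named values that leaving it out moved.

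In kidney, 41 of the 49 probes were detected on at least 3 arrays and were tested, covering 27 genes, and 33 probes of 21 genes were detected on all 11 arrays. The 3 genes with a probe but no detection on any kidney array were Calb1 (calbindin, a calcium buffer of the connecting tubule), Avpr2 (the vasopressin receptor of principal cells) and Atp6v1g3 (a proton pump subunit of intercalated cells). Their mean log2 signals lay between 4.69 and 5.73 in every group. A probe near background says nothing about whether the gene is expressed, since probes differ in how well they hybridise. Levels are therefore not compared between probes.

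In modIVIg kidneys, 25 of the 27 measured genes had a lower fitted mean than in IVIg kidneys and 2 a higher one, with a median log2 difference of -0.27 against -0.01 over all 7910 genes tested. By direction alone, 34 of the 41 probes were lower, against 51.3% of all probes. None of the 41 probes passed the test (limma, Benjamini-Hochberg adjusted p under 0.05), and the share of all 11010 probes called in this comparison was 0%. At an unadjusted p under 0.05 there were 15 of 41 probes and 8 of 27 genes, against 9.43% of all probes. Values on every modIVIg array were below every IVIg array for 7 of the 41 probes, against 1.28% of all probes, and above for 1, against 1.11%. These probes belong to 5 genes on the low side (Slc4a1, Cldn10, Slc12a1, Umod and Fxyd4) and to Trpm6 on the high side. Probes of 1 gene share their RNA, so the probe counts are not counts of independent genes. In whole kidney, fewer cells of a type and less RNA per cell cannot be told apart.

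When kidney IVIg replicate 3 was left out, 24 of 27 genes were lower in modIVIg and 3 higher, against 4028 of all 7910 genes lower. The median difference was -0.20 against -0.004 over all genes. In this setting 5 of 27 genes had an unadjusted limma p under 0.05, against 787 of 7910, and 0 probes were called. By the brightest probe, every modIVIg array lay below every IVIg array for 3 of 27 genes, against 199 of 7910. The reverse held for 1 gene, against 164 of 7910. With all arrays, 30 of the 41 probes were lower in modIVIg both among replicates 1 and 2 and among replicates 3 and 4, against 29.2% of all probes.

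Against vehicle, 23 of 27 genes had a lower mean in modIVIg kidneys and 4 a higher one, with a median difference of -0.20 against 0.01 over all genes tested. By direction alone, 35 of the 41 probes were lower, against 49.1% of all probes. No member probe passed, and again 0% of all probes were called. At an unadjusted p under 0.05 there were 4 of 27 genes and 6 of 41 probes, against 7.7% of all probes. Every modIVIg array lay below every vehicle array for 2 genes by their brightest probe, Cldn10 and Slc4a1, and for 6 probes, against 2.23% of all probes. The reverse order held for 0 probes, against 2.87% of all. Of the 41 probes, 27 were lower in both parts of the split, against 27.7% of all. In the second part every value against vehicle rests on vehicle replicate 3 alone. Leaving out kidney IVIg replicate 3, which enters this comparison through the shared estimate of spread and the block, left 23 lower and 4 higher. Over all 7910 genes 3792 were then lower.

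Between IVIg and vehicle kidneys, 18 of 27 genes were higher in IVIg and 9 lower, with a median difference of 0.14 against 0.02 over all genes. By direction alone, 14 of the 41 probes were lower, against 46.6% of all probes. No member probe passed and 0% of all probes were called. An unadjusted p under 0.05 was reached by 1 of 41 probes, against 3.85% of all probes, and no probe separated the groups downward (0.472% of all) or upward (1.16% of all). Without IVIg replicate 3 the median was 0.04 against 0.02 over all genes, with 15 genes higher and 12 lower, against 4360 of all 7910 genes higher. The 3 comparisons share their arrays in pairs, so their medians are not independent of each other.

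**Figure D1:**
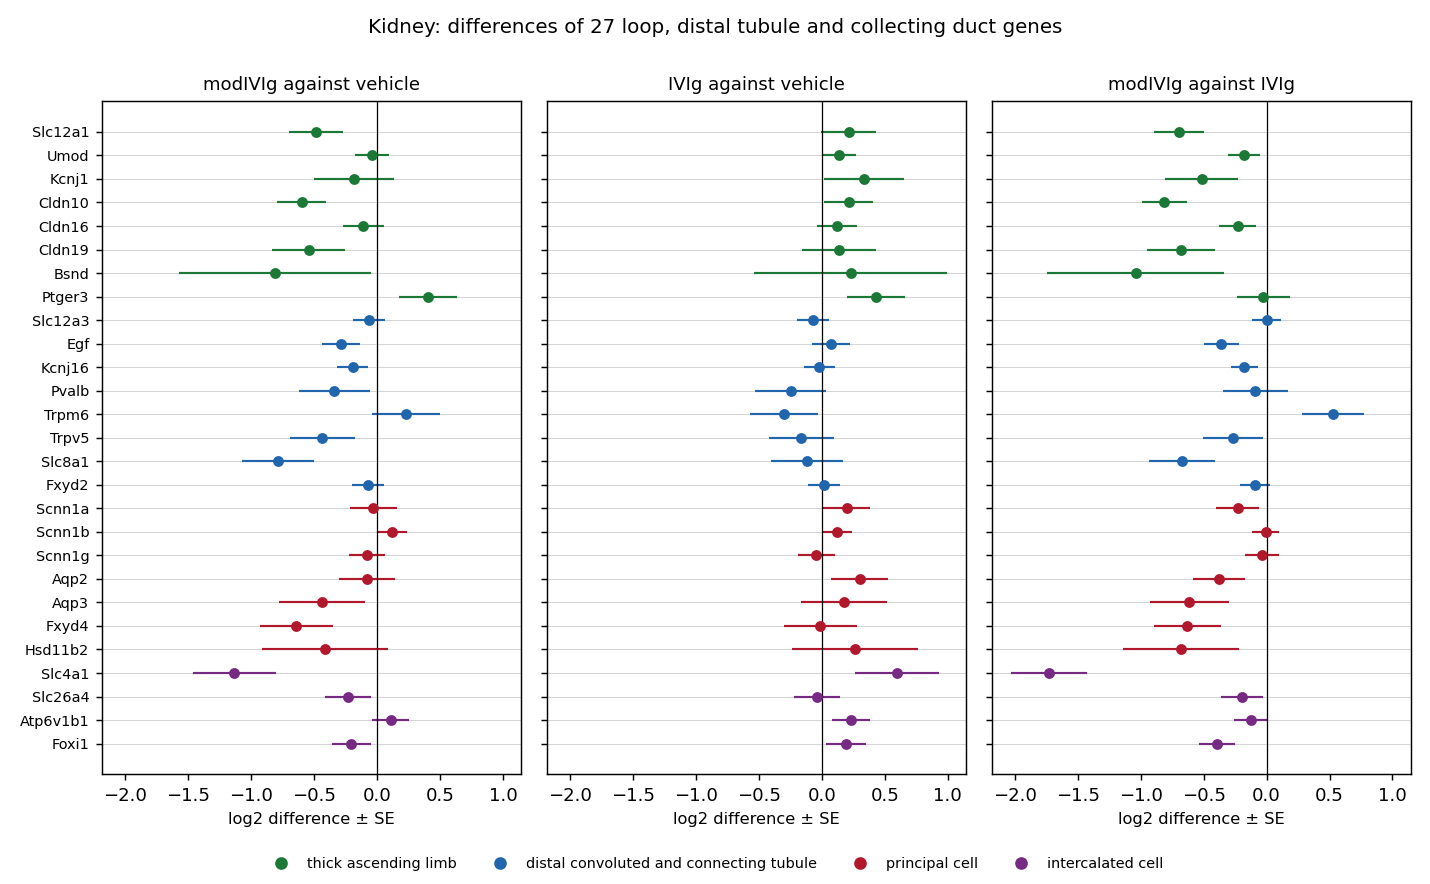
Fitted log2 difference ± SE (limma with the replicate split as a block) of the 27 measured genes in kidney, 1 point per gene by its brightest kept probe, coloured by nephron segment, for modIVIg against vehicle, IVIg against vehicle and modIVIg against IVIg. In the modIVIg against IVIg panel 25 of 27 points lie left of 0, Slc4a1 lies lowest at -1.73 and Trpm6 lies highest at 0.53, and none passed the test.

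Slc4a1 had the largest difference of the intercalated cell genes and of all members. It encodes band 3, the chloride-bicarbonate exchanger of red cells, and a shorter form of the same protein is the basolateral exchanger of acid-secreting intercalated cells. Its log2 signal was 7.37, 7.56, 7.00 and 7.34 on the 4 modIVIg kidney arrays, 8.20, 9.25, 9.85 and 8.89 on the 4 IVIg arrays, and 8.31, 8.75 and 8.26 on the 3 vehicle arrays. All 4 modIVIg arrays were lower than all IVIg and all vehicle arrays, while IVIg and vehicle overlapped. The difference was -1.73 ± 0.30 (SE) between modIVIg and IVIg, ranked 6 of 11010 probes by the moderated statistic, with a limma adjusted p of 0.25. Against vehicle it was -1.13 ± 0.33 for modIVIg (adjusted p = 0.581) and 0.60 ± 0.33 for IVIg (adjusted p = 0.999). The IVIg to vehicle value was 0.34 ± 0.26 without IVIg replicate 3. The modIVIg to IVIg difference was -1.26 in the first part of the split (replicates 1 and 2) and -2.20 in the second. With IVIg replicate 3 left out it was -1.43 ± 0.24 with an adjusted p of 0.156, and over all alternatives the adjusted p ran from 0.0711 to 1.

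Because Slc4a1 is also a red cell gene, its values stand beside those of the erythroid markers. Of 9 marker genes 5 had a probe and 3 were kept in kidney, namely Alas2 (haem synthesis), Hba-a1 (alpha globin) and Klf1 (an erythroid transcription factor). Their differences between modIVIg and IVIg kidneys were -0.10 ± 0.21 for Alas2, -0.12 ± 0.17 for Hba-a1 and 0.06 ± 0.15 for Klf1. Alas2 differed by -0.22 and Hba-a1 by -0.19 when IVIg replicate 3 was left out. The summed normalised signal of the 3 genes was 18300 to 25300 in modIVIg, 19800 to 29000 in IVIg and 15500 to 23500 in vehicle kidneys. Epb42 and Kel, a red cell membrane protein and a blood group antigen, were detected on 0 of 11 kidney arrays. Kel was detected on all 7 usable blood arrays and Epb42 on none of them, so the Epb42 probe carries no information on red cell RNA. The sums overlapped between all groups and consist mostly of Hba-a1. The part of red cell RNA in the kidney difference was not tested.

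**Figure D2:**
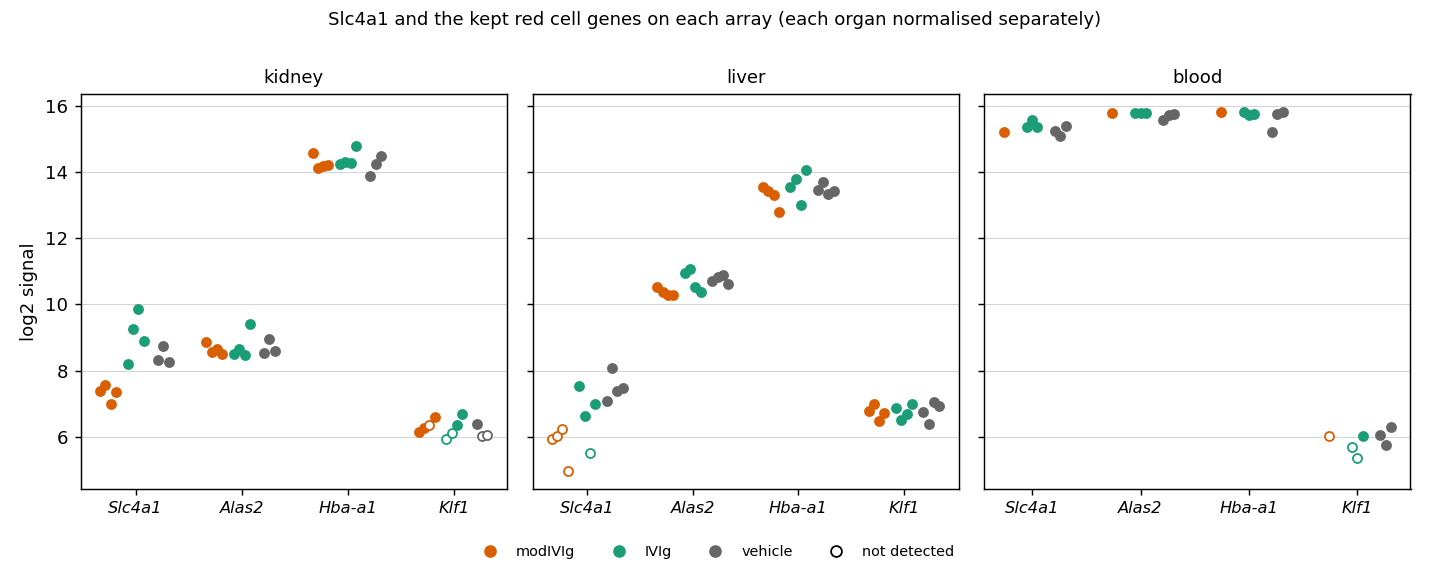
Log2 signal on each array of Slc4a1 and of the 3 erythroid genes kept in kidney, in kidney, liver and blood (each organ normalised separately), with modIVIg, IVIg and vehicle side by side and open circles where the probe was not detected. In kidney the 4 modIVIg points of Slc4a1 lie at or below 7.56 and the other 7 at or above 8.20, while Alas2, Hba-a1 and Klf1 overlap between groups.

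Foxi1, the transcription factor that specifies intercalated cells, had 6.28, 5.96, 6.68 and 6.81 in modIVIg, 6.58, 6.82, 7.17 and 6.73 in IVIg and 6.51, 6.53 and 6.68 in vehicle kidneys. The modIVIg and IVIg arrays overlapped, and 2 of 4 modIVIg, 4 of 4 IVIg and 3 of 3 vehicle arrays detected it. The difference was -0.40 ± 0.14 between modIVIg and IVIg (limma adjusted p = 0.45) and 0.19 ± 0.16 between IVIg and vehicle (adjusted p = 0.999). Its other 2 probes were detected on no kidney array.

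Atp6v1b1, a proton pump subunit of intercalated cells, had 6.08, 6.16, 6.33 and 6.55 in modIVIg, 6.46, 6.19, 6.41 and 6.57 in IVIg and 6.22, 6.32 and 5.94 in vehicle kidneys. The groups overlapped near background, with 8 of 11 arrays detecting it and a modIVIg to IVIg difference of -0.12 ± 0.14. Slc26a4 (pendrin, the chloride-bicarbonate exchanger of base-secreting intercalated cells) differed by -0.19 ± 0.17 between modIVIg and IVIg and was detected on all 11 arrays. The median difference of the 4 measured intercalated genes was -0.29, and the modIVIg mean was below the IVIg mean for all 4.

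Of 13 further intercalated cell genes, 12 had a probe, 6 were measured in kidney and 0 passed in any comparison. Against IVIg 5 of 6 were lower in modIVIg, with a median of -0.41. The 1 with the largest moderated statistic was Car12, a membrane carbonic anhydrase, at -0.63 ± 0.22 against IVIg (adjusted p = 0.442) and -0.74 ± 0.24 against vehicle (adjusted p = 0.583). With IVIg replicate 3 left out Car12 differed by -0.41 ± 0.16 from IVIg, and the median against IVIg was -0.14, with 4 of 6 lower. Against vehicle 6 of 6 were lower in modIVIg (median -0.21), or 5 of 6 with a median of -0.18 without IVIg replicate 3. Their summed signal was 1810 to 2410 in modIVIg, 1900 to 4080 in IVIg and 2160 to 2520 in vehicle kidneys, and the 4080 is that of IVIg replicate 3. For IVIg against vehicle the leading gene was Rhcg, an ammonia channel, at 0.29 ± 0.19 (adjusted p = 0.999), or 0.13 ± 0.14 without that array.

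The 8 measured thick ascending limb genes all had a lower mean in modIVIg than in IVIg kidneys, with a median difference of -0.60. Without IVIg replicate 3 the median was -0.21 and all 8 were still lower. Among replicates 1 and 2 the median was -0.36 and among replicates 3 and 4 it was -0.73. Against vehicle, 7 of 8 were lower in modIVIg (median -0.33), and 8 of 8 were higher in IVIg (median 0.21), or 7 of 8 with a median of 0.14 when IVIg replicate 3 was left out. No probe of these genes passed.

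Cldn10, a claudin that forms the sodium-selective tight junction of the thick ascending limb in 1 of its isoforms, separated modIVIg from the other groups with 3 of its 4 probes. Its brightest probe read 13.07, 12.75, 12.68 and 12.80 in modIVIg, 13.47, 13.42, 14.18 and 13.47 in IVIg and 13.41, 13.53 and 13.32 in vehicle kidneys. All modIVIg arrays lay below all others, and IVIg and vehicle overlapped. The difference was -0.81 ± 0.18 between modIVIg and IVIg (rank 26 of 11010, limma adjusted p = 0.357), -0.60 ± 0.19 between modIVIg and vehicle (adjusted p = 0.583) and 0.21 ± 0.19 between IVIg and vehicle (adjusted p = 0.999).

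All 4 Cldn10 probes were detected on every kidney array and pointed the same way. The other 3 differed by -0.95 ± 0.20, -1.22 ± 0.27 and -0.80 ± 0.42 between modIVIg and IVIg (-0.71 ± 0.12, -0.96 ± 0.22 and -0.70 ± 0.46 without IVIg replicate 3). The first 2 of these also separated modIVIg from both other groups, and the last overlapped. Those first 2 are annotated to 1 transcript, and the last and the brightest probe to another. Which of these transcripts is the thick ascending limb form was not determined here, so the Cldn10 differences cannot be placed in that segment. The counts and medians of the segment include the gene all the same. Without IVIg replicate 3, in which the brightest probe reached 14.18, that probe differed by -0.61 ± 0.11 from IVIg with an adjusted p of 0.156, and IVIg differed from vehicle by 0.04 ± 0.11 in place of 0.21. Over all alternatives of the modIVIg to IVIg difference the adjusted p ran from 0.111 to 1.

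Slc12a1, the apical sodium-potassium-chloride cotransporter and the target of loop diuretics, read 13.04, 12.62, 12.06 and 12.18 in modIVIg, 13.39, 13.47, 12.86 and 12.97 in IVIg and 13.56, 12.62 and 12.94 in vehicle kidneys. The modIVIg and IVIg arrays overlapped across the split, but within each part of it both modIVIg arrays were below both IVIg arrays. The share of all probes with this order was not computed. The difference was -0.70 ± 0.20 between modIVIg and IVIg (adjusted p = 0.404) and -0.48 ± 0.22 between modIVIg and vehicle (adjusted p = 0.647). Of its other 3 probes, the 2 bright ones differed by -0.78 ± 0.22 and -0.73 ± 0.21 between modIVIg and IVIg. The dim one, detected on 5 of 11 arrays, differed by 0.00 ± 0.18 between modIVIg and IVIg and by -0.42 ± 0.20 between modIVIg and vehicle.

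The windows upstream of the start sites of Slc12a1 and Cldn10 are shown because these are the thick ascending limb genes with the largest moderated statistics between modIVIg and IVIg. Cldn10, which is known to use alternative first exons, has 2 annotated starts 67.1 kb apart. The window of Trpm6 is shown as that of the member with the largest positive difference between modIVIg and IVIg. Each is the 250 bases before an annotated start, 5′ to 3′, from RefSeq on GRCm38.p6. Capitals mark a forkhead motif (TGTTTAC) or an HNF1 half-site (GTTAAT), searched on both strands. The motifs do not overlap in these windows, and the reverse complement of the half-site reads ATTAAC.
Slc12a1 (chr2:125152350-125152599, plus strand): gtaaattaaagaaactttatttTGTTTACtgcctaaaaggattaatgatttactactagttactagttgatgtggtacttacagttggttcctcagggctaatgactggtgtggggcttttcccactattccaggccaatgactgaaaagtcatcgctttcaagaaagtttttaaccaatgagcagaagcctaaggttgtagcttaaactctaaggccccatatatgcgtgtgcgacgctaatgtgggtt
Cldn10 upstream start (chr14:118787621-118787870, plus strand): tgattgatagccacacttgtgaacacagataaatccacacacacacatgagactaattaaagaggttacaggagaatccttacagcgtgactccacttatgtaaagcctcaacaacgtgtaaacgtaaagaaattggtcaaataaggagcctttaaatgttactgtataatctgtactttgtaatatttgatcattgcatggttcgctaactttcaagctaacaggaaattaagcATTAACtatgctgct
Cldn10 downstream start (chr14:118854700-118854949, plus strand): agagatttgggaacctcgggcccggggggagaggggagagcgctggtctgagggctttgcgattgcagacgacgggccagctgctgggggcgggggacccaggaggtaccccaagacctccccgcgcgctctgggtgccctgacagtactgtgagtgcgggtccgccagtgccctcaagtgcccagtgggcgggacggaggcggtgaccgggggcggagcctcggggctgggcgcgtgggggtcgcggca
Trpm6 (chr19:18749480-18749729, plus strand): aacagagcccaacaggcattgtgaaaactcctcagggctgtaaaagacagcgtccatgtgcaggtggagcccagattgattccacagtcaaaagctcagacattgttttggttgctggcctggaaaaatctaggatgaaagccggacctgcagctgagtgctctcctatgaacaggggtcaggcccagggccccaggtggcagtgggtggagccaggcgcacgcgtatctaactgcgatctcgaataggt
Relative to the start, the forkhead motif of Slc12a1 begins at -228, and the half-site of the upstream Cldn10 start begins at -15 as printed and reads on the opposite strand. The downstream Cldn10 window and the Trpm6 window hold neither. Of all 32851 windows of this length, 3.17% hold the forkhead motif and 6.43% the half-site. Windows were given for 25 of the 31 genes, and 4 of their 32 windows hold each motif. A match is a string of letters, not a binding site, and no binding was measured here.

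Ptger3, a prostaglandin E receptor of the thick ascending limb, differed more across the split than between treatments. It read 8.84, 8.06, 5.84 and 6.22 in modIVIg, 8.88, 8.61, 5.47 and 6.10 in IVIg and 8.27, 8.10 and 5.48 in vehicle kidneys. All arrays of replicates 1 and 2 were above all arrays of replicates 3 and 4, and none of the 5 arrays of the second part detected it. With the block it differed by -0.02 ± 0.21 between modIVIg and IVIg (-0.20 ± 0.19 without IVIg replicate 3) and by 0.43 ± 0.23 between IVIg and vehicle (limma adjusted p = 0.999). Without a block the second value was -0.02 ± 1.07.

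Of the remaining thick ascending limb genes, Umod (uromodulin, the main urinary protein) differed by -0.18 ± 0.12 between modIVIg and IVIg by its brightest probe, which overlapped. Its second probe separated these groups, at 14.12 to 14.28 in modIVIg and 14.39 to 14.59 in IVIg, while vehicle (13.93 to 14.51) overlapped both. Without IVIg replicate 3 the 2 probes differed by -0.22 ± 0.13 and -0.34 ± 0.14 between modIVIg and IVIg. Cldn16 and Cldn19, the paired claudins of the magnesium and calcium pathway, differed by -0.23 ± 0.15 and -0.68 ± 0.27, and Kcnj1 (the potassium recycling channel) by -0.52 ± 0.29. The Kcnj1 difference was -0.16 ± 0.15 without IVIg replicate 3. Bsnd (barttin, the chloride channel subunit) differed by -1.04 ± 0.70. Its 4 IVIg arrays read 7.66, 7.31, 11.48 and 7.58, and without replicate 3 the difference was -0.12 ± 0.26.

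**Figure D3:**
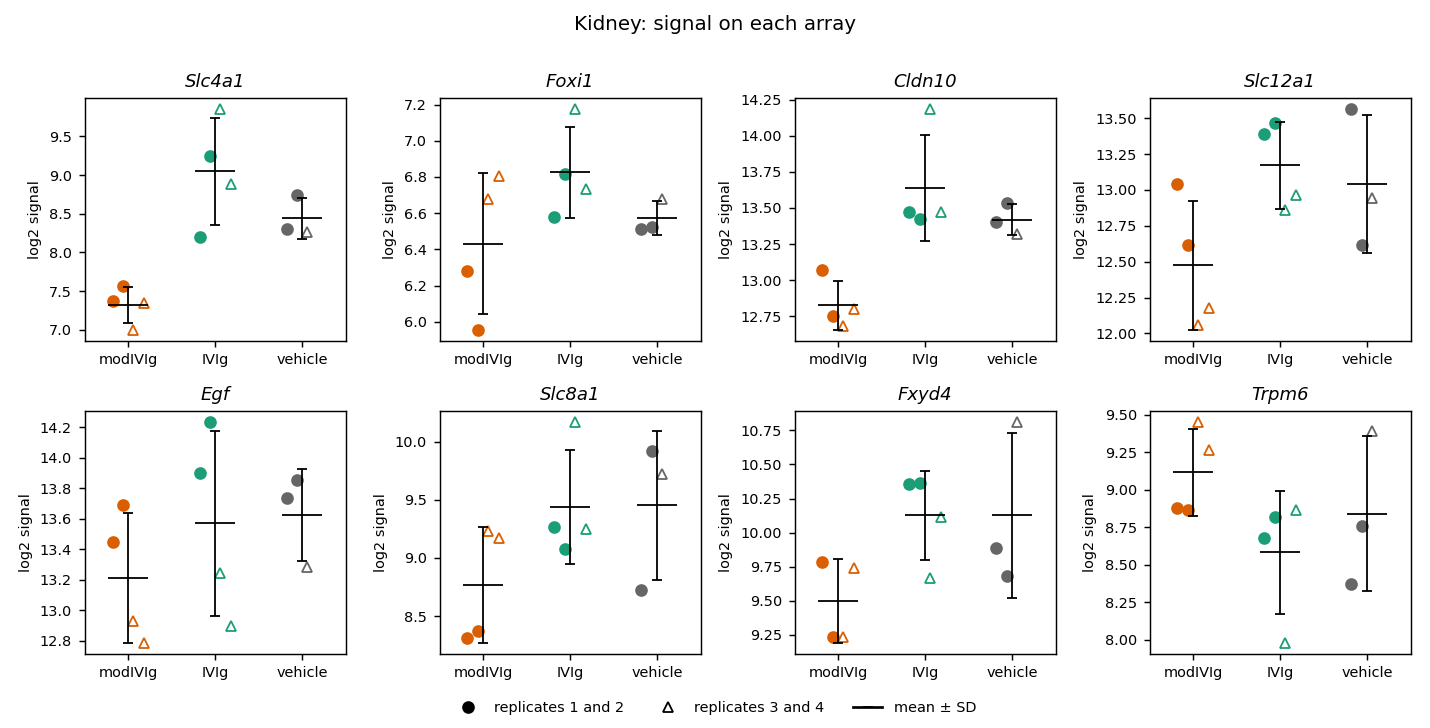
Log2 signal on each kidney array of 8 genes by their brightest kept probe, with modIVIg, IVIg and vehicle from left to right, filled circles for replicates 1 and 2, open triangles for replicates 3 and 4, and bars for the mean ± SD. The modIVIg arrays of Slc4a1 and Cldn10 lie below all others, both Slc12a1 modIVIg arrays lie below both IVIg arrays within each part of the split, and Trpm6 is the 1 gene of the 8 with a higher modIVIg mean.

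In the distal convoluted and connecting tubule, 8 of 10 genes were measured, 6 of them lower and 2 higher in modIVIg than in IVIg, with a median difference of -0.13. With IVIg replicate 3 left out, 5 were lower and 3 higher, with a median of -0.07. Slc12a3, the thiazide-sensitive sodium chloride cotransporter that defines the segment, had the smallest difference of the 27 genes, with all arrays, between modIVIg and IVIg. Its brightest probe read 12.44, 12.26, 12.91 and 12.57 in modIVIg, 12.49, 12.49, 12.68 and 12.50 in IVIg and 12.39, 12.57 and 12.74 in vehicle kidneys. The groups overlapped and the modIVIg to IVIg difference was 0.00 ± 0.12, with 0.02 ± 0.11 and 0.02 ± 0.18 for its other 2 probes.

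Trpm6, the apical magnesium channel, was the only member gene whose modIVIg arrays all lay above its IVIg arrays, and then only just. Its brightest probe read 8.88, 8.86, 9.45 and 9.27 in modIVIg, 8.68, 8.82, 7.98 and 8.86 in IVIg and 8.37, 8.76 and 9.39 in vehicle kidneys. The lowest modIVIg and the highest IVIg array were equal to 2 decimals. The difference was 0.53 ± 0.25 between modIVIg and IVIg (limma adjusted p = 0.538), 0.23 ± 0.27 between modIVIg and vehicle and -0.30 ± 0.27 between IVIg and vehicle. The modIVIg to IVIg difference was 0.12 in the first part of the split, 0.94 in the second, and 0.25 ± 0.15 with IVIg replicate 3 left out, when the IVIg to vehicle difference was -0.05 ± 0.16. The other 2 probes differed by 0.44 ± 0.18 and 0.83 ± 0.24 between modIVIg and IVIg (0.27 ± 0.13 and 0.62 ± 0.21 without that array), overlapping in both cases. One of them, described with the split below, had a difference of -0.90 ± 0.27 between IVIg and vehicle, the 1 member probe with an unadjusted p under 0.05 in that comparison.

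Egf, the precursor of epidermal growth factor made in the distal tubule, read 13.44, 13.69, 12.93 and 12.79 in modIVIg, 13.90, 14.23, 13.25 and 12.90 in IVIg and 13.74, 13.85 and 13.28 in vehicle kidneys. Within each part of the split both modIVIg arrays were below every vehicle array, while the groups overlapped across the parts. The second part holds vehicle replicate 3 only, and how many of all probes share this order was not counted. The difference was -0.36 ± 0.14 against IVIg (adjusted p = 0.474) and -0.28 ± 0.15 against vehicle (adjusted p = 0.679).

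Slc8a1, the basolateral sodium-calcium exchanger, read 8.31, 8.37, 9.23 and 9.17 in modIVIg, 9.26, 9.08, 10.17 and 9.25 in IVIg and 8.72, 9.92 and 9.72 in vehicle kidneys. Within each part both modIVIg arrays were below all others, and across parts the groups overlapped. That order too was not counted over all probes, and vehicle replicate 3 is the only vehicle array of the second part. The difference was -0.67 ± 0.26 against IVIg (adjusted p = 0.478) and -0.79 ± 0.28 against vehicle (adjusted p = 0.597). Without IVIg replicate 3 the difference against IVIg was -0.51 ± 0.26.

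The other 4 measured genes of this segment differed by between -0.27 and -0.09 between modIVIg and IVIg. They were Kcnj16 (a basolateral potassium channel subunit), Pvalb (parvalbumin), Trpv5 (the apical calcium channel) and Fxyd2 (a sodium pump subunit). The all-negative range rests on IVIg replicate 3, since without it Pvalb differed by 0.12 ± 0.24 and the brightest Fxyd2 probe by -0.01 ± 0.11. Trpv5 was detected on 0 of 4 modIVIg, 1 of 4 IVIg and 2 of 3 vehicle arrays, all of them among replicates 1 and 2. Its bound of at least 1.01-fold lower in modIVIg than in vehicle is close to no change. The modIVIg and vehicle arrays overlapped, and no fold can be given against IVIg. The 3 Fxyd2 probes differed by -0.09 ± 0.12, -0.15 ± 0.11 and -0.53 ± 0.19 from the brightest to the dimmest.

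Of 18 further genes of the loop and distal convoluted tubule, 13 had a probe, 10 were measured and 0 passed in any comparison. Against IVIg 8 of 10 were lower in modIVIg with a median of -0.14, or 5 of 10 with a median of -0.09 when IVIg replicate 3 was left out. Casr, the calcium-sensing receptor, led with -0.61 ± 0.17 against IVIg (adjusted p = 0.404), from a probe detected on 0 of 4 modIVIg, 2 of 4 IVIg and 1 of 3 vehicle arrays, so its modIVIg level is only a bound. It also led between IVIg and vehicle (0.30 ± 0.19, adjusted p = 0.999). Against vehicle 6 of 10 were lower in modIVIg, led by Atp1b1, a sodium pump subunit, at -0.19 ± 0.10 (adjusted p = 0.667).

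Of 13 regulators of distal salt transport (the WNK kinases, Sgk1 and others), 11 were measured and 0 passed. Against IVIg 7 were lower and 4 higher in modIVIg, with a median of -0.02. The leading genes were Prss8 (a protease that activates the epithelial sodium channel) at -0.74 ± 0.38 for modIVIg against IVIg, Sgk1 at -0.31 ± 0.23 for modIVIg against vehicle and Nedd4l (a ubiquitin ligase) at -0.33 ± 0.20 for IVIg against vehicle. In these comparisons Prss8 was at -0.24 ± 0.13 and Nedd4l at -0.13 ± 0.10 without IVIg replicate 3. The Sgk1 value was 0.00 among replicates 1 and 2 and -0.80 among replicates 3 and 4, where vehicle replicate 3 is the only vehicle array. Against vehicle 6 of 11 were lower in modIVIg and 5 higher. Every modIVIg array lay below every vehicle array for Wnk1 (-0.31 ± 0.23) and Prss8 (-0.42 ± 0.41), an order shared by 2.23% of all probes.

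Of 8 principal cell genes 7 were measured, and all 7 had a lower mean in modIVIg than in IVIg kidneys (median -0.38). With IVIg replicate 3 left out all 7 were still lower and the median was -0.15. The epithelial sodium channel showed small differences. Scnn1a, Scnn1b and Scnn1g, its subunits, differed by -0.23 ± 0.17, -0.01 ± 0.11 and -0.04 ± 0.13 between modIVIg and IVIg. They differed, without IVIg replicate 3, by -0.10 ± 0.16, -0.10 ± 0.09 and -0.01 ± 0.14, so their order rests on that array.

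Fxyd4, a sodium pump subunit of the collecting duct, read 9.78, 9.24, 9.23 and 9.74 in modIVIg, 10.36, 10.36, 9.67 and 10.12 in IVIg and 9.89, 9.68 and 10.81 in vehicle kidneys. The brightest probe overlapped, since IVIg replicate 3 was below 2 modIVIg arrays, and the second probe separated modIVIg from IVIg. With that array left out the brightest probe differed by -0.82 ± 0.26 and separated too. The 2 probes differed by -0.63 ± 0.27 and -0.66 ± 0.31 between modIVIg and IVIg (limma adjusted p = 0.513 and 0.543), and by -0.64 ± 0.29 and -0.31 ± 0.34 between modIVIg and vehicle. For the brightest probe the difference from vehicle ranged from -0.85 to -0.16 with each array left out, and from -1.32 to -0.27 under the other alternatives.

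Aqp2, the vasopressin-regulated apical water channel, read 8.42, 7.61, 7.77 and 8.17 in modIVIg, 8.33, 7.99, 8.72 and 8.46 in IVIg and 7.92, 7.71 and 8.44 in vehicle kidneys. The groups overlapped, and the difference was -0.38 ± 0.20 between modIVIg and IVIg and 0.30 ± 0.22 between IVIg and vehicle (limma adjusted p = 0.999). Aqp3, the basolateral water channel, differed by -0.61 ± 0.31 between modIVIg and IVIg, and without IVIg replicate 3 by -0.26 ± 0.20. Hsd11b2, which protects the aldosterone receptor from glucocorticoids, differed by -0.68 ± 0.46, and without IVIg replicate 3 by -0.15 ± 0.28.

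Of 14 further principal cell genes, 13 had a probe, 10 were measured and 0 passed. Against IVIg 6 were lower and 4 higher in modIVIg with a median of -0.07, or 8 lower with a median of -0.17 when IVIg replicate 3 was left out. The leading genes were Gata2, a transcription factor, at -0.37 ± 0.23 for modIVIg against IVIg (-0.13 ± 0.17 without that array), and Aqp4, a basolateral water channel, at -1.49 ± 0.60 for modIVIg against vehicle and -1.06 ± 0.60 for IVIg against vehicle.

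Markers of other kidney cell types moved as follows beside these values, and their part in them was not tested. Of the proximal tubule markers 8 of 10 measured were lower in modIVIg than in IVIg, with a median of -0.12 (6 of 10 and -0.02 with IVIg replicate 3 left out) and sums of 158000 to 202000 in modIVIg, 167000 to 207000 in IVIg and 165000 to 208000 in vehicle. The leading genes were Slc13a3 (a dicarboxylate transporter, -0.56 ± 0.23 for modIVIg against IVIg, or -0.31 ± 0.15 without that array) and Gatm (creatine synthesis, -0.85 ± 0.31 for modIVIg against vehicle and -0.57 ± 0.31 for IVIg against vehicle). The 5 tubular injury markers were all higher in modIVIg than in IVIg, with a median of 0.63, led by Clu (clusterin, 0.63 ± 0.24). Larger differences with similar statistics were those of Krt20, a keratin (2.21 ± 0.87), and Havcr1 (1.82 ± 0.70). Lcn2 differed by 0.42 ± 0.51 and Timp1, a protease inhibitor, by 0.27 ± 0.23. The leading gene against vehicle was Krt20 at 2.06 ± 0.95 for modIVIg, and Timp1 at -0.24 ± 0.25 for IVIg. Their summed signal was 53400 to 64300 in modIVIg, 16600 to 59900 in IVIg and 36800 to 65600 in vehicle. The 16600 was IVIg replicate 3. With it left out, 4 of 5 were higher in modIVIg than in IVIg, with a median of 0.36. Krt20 was then at 1.14 ± 0.45, Havcr1 at 1.01 ± 0.43, Clu at 0.36 ± 0.16, Timp1 at 0.02 ± 0.16 and Lcn2 at -0.24 ± 0.17. Between IVIg and vehicle Timp1 differed by -0.02 ± 0.17 without that array, and the median was 0.36 in place of -0.24.

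All 4 measured adipocyte markers were higher in modIVIg than in IVIg (median 2.59, led by Cidec at 2.64 ± 0.63) and lower in IVIg than in vehicle (median -2.94, led by Cidec at -2.61 ± 0.69). Their summed signal was 933 to 4440 in modIVIg, 141 to 526 in IVIg and 360 to 7710 in vehicle kidneys, and Plin1, Fabp4 and Retn were detected on 0 of 11. Of the 3 measured podocyte markers all were lower in modIVIg than in IVIg (median -0.37, led by Wt1 at -0.43 ± 0.19), with sums of 1120 to 1770, 1440 to 2540 and 1490 to 1600 in modIVIg, IVIg and vehicle. Of 5 leukocyte markers 3 were higher and 2 lower (median 0.04, led by Cd74 at -0.86 ± 0.16), with sums of 3580 to 5220 in modIVIg, 4550 to 5620 in IVIg and 3990 to 4240 in vehicle. The 3 higher ones were S100a8 at 0.65 ± 0.21, S100a9 at 0.46 ± 0.14 and Lyz2 at 0.04 ± 0.17, and Cd52 was at -0.19 ± 0.17. Without IVIg replicate 3 Cd74 was at -0.88 ± 0.17, S100a8 at 0.44 ± 0.17 and S100a9 at 0.32 ± 0.11. Of 4 urothelial markers 2 were higher and 2 lower (median 0.15, led by Upk1b at 0.56 ± 1.13), with sums of 168 to 1540, 236 to 516 and 203 to 1350. Ptprc, the pan-leukocyte marker, and Krt5, a urothelial keratin, were detected on 0 of 11. Against vehicle the leading genes for modIVIg were Ucp1 (-0.98 ± 1.33), Podxl (-0.12 ± 0.14), S100a8 (0.82 ± 0.23), Upk3b (-0.46 ± 0.47) and Klf1 (0.14 ± 0.16). For IVIg they were Wt1 (0.31 ± 0.21), Cd74 (0.42 ± 0.17), Upk1b (-1.19 ± 1.23) and Hba-a1 (0.17 ± 0.19). Without IVIg replicate 3 the medians between modIVIg and IVIg were -0.18 for podocyte, 0.16 for leukocyte and -0.06 for urothelial markers (Upk1b at 0.31 ± 1.25). None of these markers passed the test in kidney.

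The split of the replicate numbers was as large as or larger than the treatment differences for several members, and probes of the same gene disagreed on it. It is given as a description without a test, because the split was found in these data. Over all 11010 probes, replicates 3 and 4 differed from replicates 1 and 2 by a median of 0.24, with 14.7% of probes wholly below and 18.3% wholly above. Of the 41 member probes 3 were wholly below and 5 wholly above. Ptger3 differed by -2.69, Kcnj1 by -1.31 and Egf by -0.77, while Pvalb differed by 1.05 and Scnn1a and Scnn1b by 0.47 and 0.42.

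Trpm6 shows the disagreement most clearly. Its remaining probe read 8.29, 7.86, 7.20 and 6.28 in modIVIg, 7.31, 7.51, 5.30 and 6.18 in IVIg and 7.96, 8.32 and 6.86 in vehicle kidneys, all arrays of replicates 3 and 4 below all of replicates 1 and 2, a difference of -1.45. The other 2 Trpm6 probes differed by 0.45 and 0.27 across the same split. The 3 Fxyd2 probes differed by 0.03, -0.35 and 0.30, and the 3 Slc12a3 probes by 0.81, 0.25 and 0.30. A shift of more than 1 on the log2 scale downward in replicates 3 and 4 occurred in 11.2% of all probes, and upward in 0.263%.

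**Figure D4:**
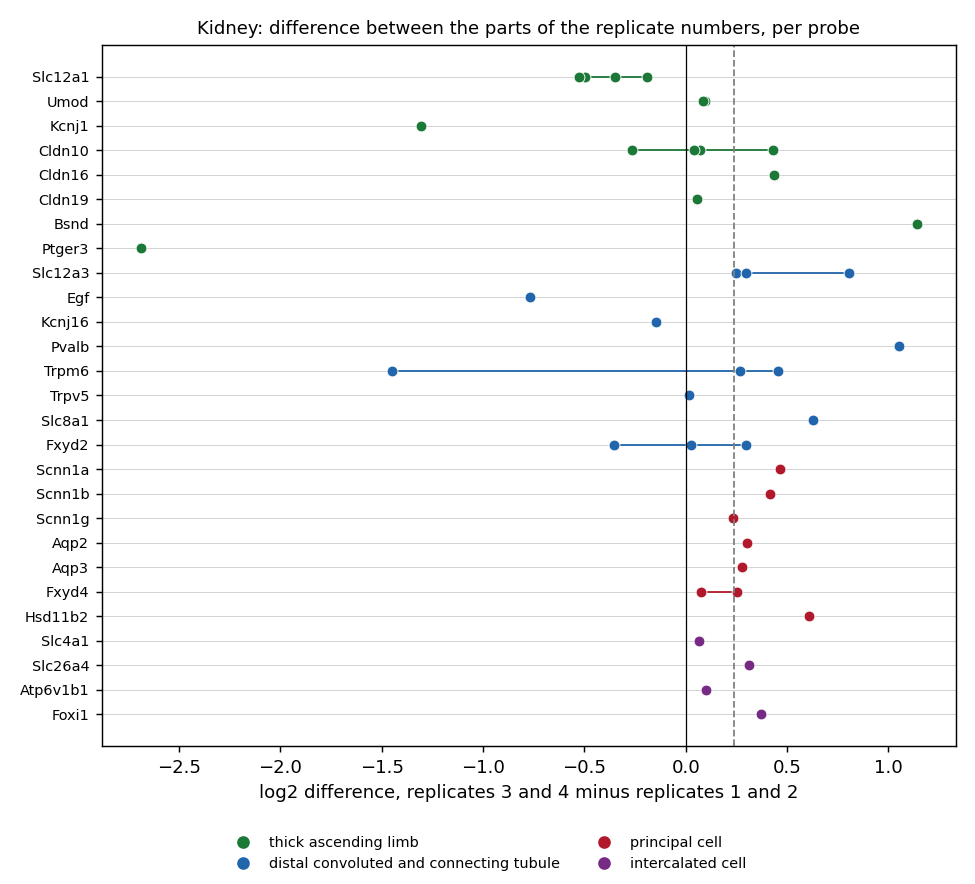
Log2 difference between kidney replicates 3 and 4 and kidney replicates 1 and 2 for each of the 41 measured probes, 1 row per gene with its probes joined by a line and coloured by nephron segment; the dashed line is the median of all probes, 0.24. Ptger3 lies farthest left at -2.69, and the 3 Trpm6 probes run from -1.45 to 0.45.

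The same probes were also set against liver. The 41 probes entered this contrast through their detection in kidney, while the other probes fitted with them were kept in either organ, so nothing is read from how many were called. Normalised together, 38 of the 41 were called higher in kidney than in liver (41.5% of all 11568 probes were), 2 were called lower (39.5%) and 81.1% of all probes were called. In liver 44 of the 49 probes were detected on no array, and of the 41 kept in kidney 36 were, against 15% of all probes kept in kidney.

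Because most were undetected in liver, 33 of the differences are lower bounds, computed against the higher of a liver array's lowest detected signal and its reading for that probe. They ran from at least 1.17-fold to at least 381-fold. Umod was at least 381-fold higher in kidney, Fxyd2 at least 157-fold, Egf at least 107-fold, Cldn10 at least 94.2-fold and Slc12a1 at least 69.7-fold, each by its most strongly bounded probe. The 2 probes that were lower in kidney were those of Trpv5 (-0.35 ± 0.14, limma adjusted p = 0.0322) and Atp6v1b1 (-0.57 ± 0.12, adjusted p = 0.00024), both near background in each organ. The dim Slc12a1 probe was not called (0.19 ± 0.11, adjusted p = 0.108).

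**Figure D5:**
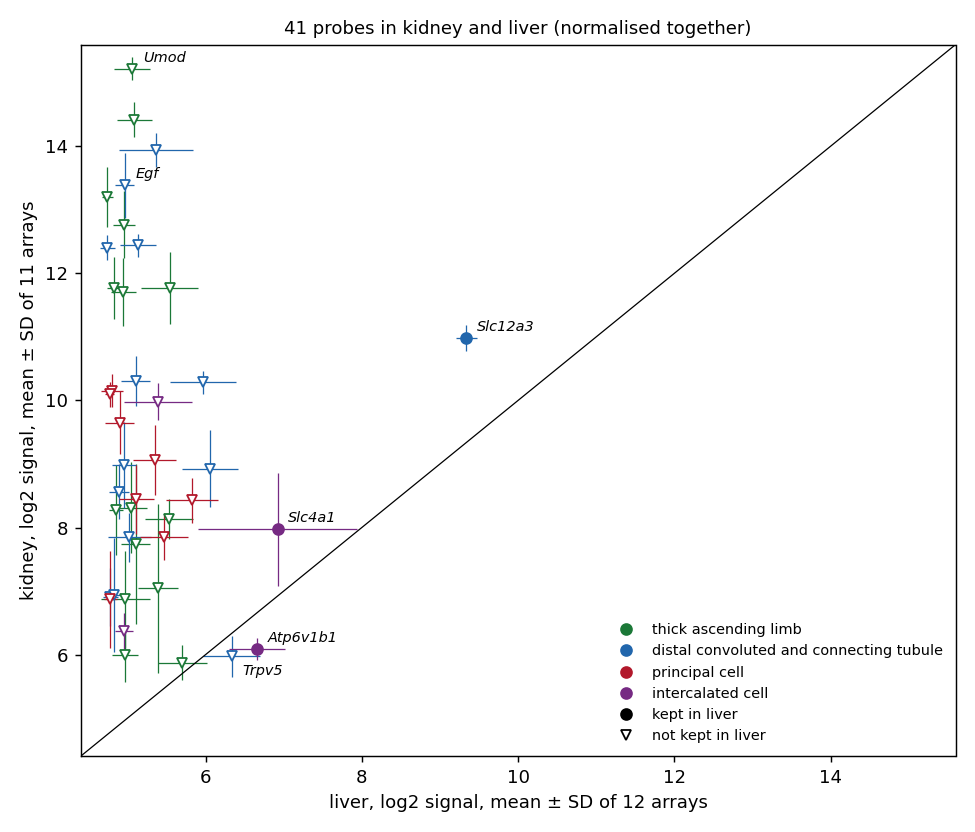
Mean log2 signal ± SD of the 41 probes on the 11 kidney arrays (vertical) and the 12 liver arrays (horizontal), normalised together, coloured by nephron segment, with filled circles for the 3 probes kept in liver and open triangles for the others; the line marks equal signal. Most probes stand at liver background, Umod highest at 15.22 in kidney, and Slc12a3, Slc4a1 and Atp6v1b1 are the 3 kept in liver.

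In liver 3 member probes were detected on at least 4 of the 12 arrays and tested. Slc4a1 fell in modIVIg livers. It read 5.92, 6.03, 6.23 and 4.97 in modIVIg, 7.52, 6.63, 5.50 and 7.00 in IVIg and 7.08, 8.09, 7.38 and 7.48 in vehicle livers. None of the modIVIg arrays, 3 of the IVIg arrays and all 4 vehicle arrays detected it, and every modIVIg array was below every vehicle array, an order shared by 8.46% of all probes. The fitted difference between modIVIg and vehicle was -1.72 ± 0.39 (limma adjusted p = 0.0307), and with modIVIg at its detection bound it was at least 2.34-fold lower under this background correction, against 2.81% of all 9114 liver probes called lower and 4.47% called in all.

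The liver call was close to its threshold. It was lost when any 1 modIVIg array, or vehicle replicate 2, 3 or 4, was left out, with adjusted p between 0.0532 and 0.103, and over all alternatives the adjusted p ran from 0.00351 to 0.103. The size depended on the background correction: it was -0.82 without one (adjusted p = 0.0275) and -0.80 in the authors' processed values (adjusted p = 0.0278). Between modIVIg and IVIg livers Slc4a1 was at least 1.31-fold lower and did not pass (-0.88 ± 0.39, adjusted p = 0.293, 0.845% of all probes called), and in the authors' values it was -0.39. Without IVIg replicate 3, the 1 IVIg liver that did not detect it, the difference was -1.26 with an adjusted p of 0.0419, and over the alternatives it ran up to 0.536. Between IVIg and vehicle the difference was -0.84 ± 0.39 (adjusted p = 1, 0% of all probes called), or -0.46 without IVIg replicate 3 and -0.41 in the authors' values.

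All 3 erythroid markers kept in liver had a lower mean in modIVIg than in vehicle livers. Alas2 read 10.54, 10.39, 10.28 and 10.29 in modIVIg, against 10.70, 10.83, 10.89 and 10.61 in vehicle livers, so every modIVIg array was below every vehicle array, as for Slc4a1. It differed by -0.39 ± 0.16 (limma adjusted p = 0.178), Hba-a1 by -0.21 ± 0.22 and Klf1 by -0.04 ± 0.17, and 0 of 3 passed. Their summed signal was 8460 to 13500 in modIVIg, 9890 to 18400 in IVIg and 12500 to 15100 in vehicle livers. The part of red cell RNA in the liver difference was not tested. In blood, Slc4a1 read between 15.08 and 15.57 on all 7 usable arrays, and 45 of the 49 member probes were detected on no blood array.

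Slc12a3 was detected on all 12 liver arrays by 1 of its 3 probes, while the other 2 were detected on none. That probe read 9.18, 9.26, 9.17 and 9.21 in modIVIg, 8.87, 9.01, 9.18 and 9.10 in IVIg and 8.89, 8.84, 8.99 and 8.91 in vehicle livers. All modIVIg arrays were above all vehicle arrays, against 10.6% of all probes, and the difference of 0.30 ± 0.11 did not pass (limma adjusted p = 0.129). Whether that signal comes from the gene was not tested.

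Atp6v1b1 read 6.10, 6.52, 7.01 and 6.31 in modIVIg, 6.41, 5.76, 6.56 and 6.19 in IVIg and 6.34, 6.10, 6.74 and 6.34 in vehicle livers, overlapping throughout, with a modIVIg to vehicle difference of 0.11 ± 0.22. Of the marker lists, 1 gene passed in liver, the water channel Aqp1, at -0.73 ± 0.15 for modIVIg against vehicle (adjusted p = 0.0225). It is a proximal tubule marker in kidney and was detected on all 12 liver arrays.

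Whether kidney and liver differed in their response was tested directly for the 3 genes measured in both. For modIVIg against vehicle the difference of the Slc4a1 changes, kidney minus liver, was 0.72 ± 0.60 (limma adjusted p = 0.643, 0.187% of all 8556 probes called). For IVIg against vehicle it was 1.51 ± 0.60 (adjusted p = 1, 0% called) and for modIVIg against IVIg -0.78 ± 0.58 (adjusted p = 0.633, 0.129% called). None of the 9 tests of these 3 genes passed.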

How the data were processed

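Groups and replicate numbers came from the sample titles. The authors deposited raw bead signals, an intensity scale without normalisation. Beside each signal, per the file headers, stands a detection p-value. GenomeStudio 1.9.0, lumi and limma are named in the submitters' processing notes without their roles, and a build is not given in the sources used here. A second deposited table, in log2 units and normalised within organs per the labels, served as an alternative. Probe symbols came from the platform annotation. Members and lists were chosen with earlier results of these data known.

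Organ by organ, signals underwent background correction and quantile normalisation (neqc, offset 16, limma 3.58.1, R 4.3.3), and kidney and liver together for the contrast between them. Kept probes (detection p under 0.01 on at least 3 kidney or 4 liver arrays) were fitted with lmFit and eBayes, with Benjamini-Hochberg adjustment over all kept probes and a threshold of 0.05. Values after ± are SE of the fit. Counts of genes use, for each, the kept probe of highest mean. The kidney fit carries the split of replicates 1 and 2 from 3 and 4 as a block. Same-numbered kidney arrays of different treatments deviated together in 10 of 10 pairs (correlation 0.617 to 0.854), as did other pairs within a part (0.626 to 0.883); in liver 6 of 12 pairs did. The pairing comes from the data, not the labels. Procedures were tested on simulated data.

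Values on every array are given for members past the threshold within an organ, for the 6 members with the largest moderated statistic in each kidney comparison and for members kept in liver; of the lists, genes past the threshold are named, or the 1 with the largest statistic. Every member is accounted for. Markers named for being undetected, and the values of the remaining Trpm6 probe, were chosen after seeing the data. So were the ranges of the second Umod probe and the list genes named besides those with the largest statistic. Alternatives covered background correction, the authors' values, detection filter, probes per gene, joint normalisation, array weights, variance prior, groups in the fit, blocks, parts of the split and each array left out; the counts and list values without kidney IVIg replicate 3 were chosen after seeing the data. A blank blood array was left out, and blood was not tested. Promoter windows are RefSeq's, GRCm38.p6.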

Additional observations from a re-analysis of the deposited data

Results flagged for a closer look

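Dixon's test at the 95% level was run on 91 combinations of a member probe and a kidney or liver group of 4 arrays. In 6 of them (6.59%) 1 array lay far from the other 3. Chance gives about 1 in 20 only for independent values, which the kidney split and probes sharing a gene do not provide. Kidney IVIg replicate 3 gave 4 of the 6, each on the high side. Bsnd read 11.48 there against 7.31 to 7.66 on the other IVIg arrays, the brightest Cldn10 probe 14.18 against 13.42 to 13.47, Slc8a1 10.17 against 9.08 to 9.26, and the brightest Slc12a3 probe 12.68 against 12.49 to 12.50. The same array had the lowest summed tubular injury signal (16600) and the highest summed signal of the further intercalated cell genes (4080). The other 2 were modIVIg arrays: a second Cldn10 probe read 11.65 in replicate 1 against 11.23 to 11.25, and Scnn1a read 8.17 in replicate 2 against 8.75 to 8.86. What set these arrays apart was not tested.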

How the results depend on the processing

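Of 1008 recomputations of 43 results under the alternatives, 986 kept their side of the threshold, stayed near their count or stayed within the spread. None (0) reversed a called value. Direction was compared only where a value was called, and some uncalled differences changed sign. Trpm6 between IVIg and vehicle kidneys, -0.30 in the main fit, reached 0.18 under an alternative. In kidney 0 member probes were called in each of the 3 comparisons under every alternative run, including no replicate block (0 called) and a replicate block by number (0 called), and kidney against liver called 39 to 41 of 41 probes. The median difference of the member genes between IVIg and vehicle kidneys ranged from 0.04 to 0.15 with each array left out (0.0371 without IVIg replicate 3). In liver, the count of member probes called between modIVIg and vehicle was 0 with no detection filter (Slc4a1 adjusted p = 0.0703), 0 with probes detected on every array, which drops Slc4a1, and 0 to 1 with each array left out; under a replicate block by number it was 1. Keeping only probes detected on every liver array left 1 member, so the median became 0.30 for modIVIg against vehicle and 0.13 for IVIg against vehicle. Between modIVIg and IVIg livers the count was 0 to 1 with each array left out. The replicate block changed no call. Members near background have differences compressed by the background offset, and 3 genes could not be measured in kidney.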
